A study of Vulpes vulpes with 8 samples.

Results

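Steroid hormone receptors, the enzymes that set local cortisol, and the vitamin D receptor with its target CYP24A1 were examined in the gingiva of red foxes (Vulpes vulpes) with or without hereditary hyperplastic gingivitis (HHG), an inherited overgrowth of the gum. The members were all probe sets on the Affymetrix Canine 2 array that the platform annotation pairs with 1 symbol among ESR1, PGR, NR3C1, NR3C2, HSD11B1, HSD11B2, FKBP5, VDR and CYP24A1. This gave 16 probe sets of 42924, for 8 of the 9 genes, among 15115 genes named on the array. The letters a, b and c number the probe sets of a gene by falling mean level. NR3C2, the mineralocorticoid receptor, was matched to no probe set and has no value here. Of the 16 probe sets, 10 were among the 25754 with enough signal to be tested, and these covered 5 genes: NR3C1, HSD11B1, HSD11B2, FKBP5 and CYP24A1.

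Steroid receptors are transcription factors that are held by chaperones until a hormone enters the cell and binds them, after which they act on target genes. Cortisol is set within a tissue by a pair of enzymes, since HSD11B1 regenerates active cortisol from cortisone and HSD11B2 inactivates it. Active vitamin D acts through VDR and strongly induces CYP24A1, whose product breaks vitamin D down, so that CYP24A1 is widely read as a gene of vitamin D response. Gingiva is known to respond to sex hormones, with swelling and bleeding in pregnancy and puberty.

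The study compared 5 affected foxes, numbers 19, 55 and 107 (males) and 381 and 757 (females), with 3 unaffected foxes, numbers 86 and 97 (males) and 402 (female), each on 1 array. Affected foxes had red, raised, granular gingiva at the margins of the teeth by the study's design text. Some pieces of gingiva were taken at pelting from euthanised animals and others in late spring from anaesthetised ones. The labels tie no season, age or genotype to a fox, so none of these was tested. The probes are those of the dog, and how well each binds fox RNA was not tested.

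Each value is a linear MAS5 signal, and the trimmed mean was the same on every array. The background of each array, the 95th percentile of 42 control probe sets for bacterial transcripts, ran from 7.42 to 16.6. Markers of keratinocytes (4 of 5 with a probe set) and fibroblasts (7 of 8) lay above background in every fox, and both are main cell types of gum, while 0 of 5 skeletal muscle markers did. The pieces differed in makeup within both groups: summed fibroblast markers read 10123 to 27357 in the affected and 8134 to 30583 in the unaffected animals, and summed cornified layer markers 5718 to 13983 and 1651 to 9026. In bulk tissue, fewer cells of a type and less RNA per cell cannot be told apart. The 5' actin control was high (7831 to 8868) in foxes 86, 97, 107 and 757 and low (1354 to 2336) in foxes 19, 55, 381 and 402. The log2 ratio of the 5' to the 3' actin control was -0.77 to -0.58 in the former and -2.84 to -1.83 in the latter. The low set is uneven over the groups, with affected foxes 19, 55 and 381 and unaffected fox 402. Whether these readings follow RNA quality was not tested.

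For no member did the difference between affected and unaffected foxes pass the test against the spread within the groups. Of the 10 member probe sets tested, limma called 0 higher and 0 lower in affected foxes after adjustment (threshold 0.05), and it called 0 (0%) of all 25754. At an unadjusted p under 0.05 there were 0 of 10 members and 693 probe sets in all, 2.69% of those tested. In 0 of the 10 did the groups separate fully, which 2.43% of all probe sets did (0.909% higher and 1.52% lower in affected foxes). Every adjusted p for a tested member was 0.9999 in limma, so the text gives the differences with their standard errors (SE) or 95% intervals instead. Differences are on the scale of log2(signal + 16), which shrinks those of dim probe sets.

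**Figure D1:**
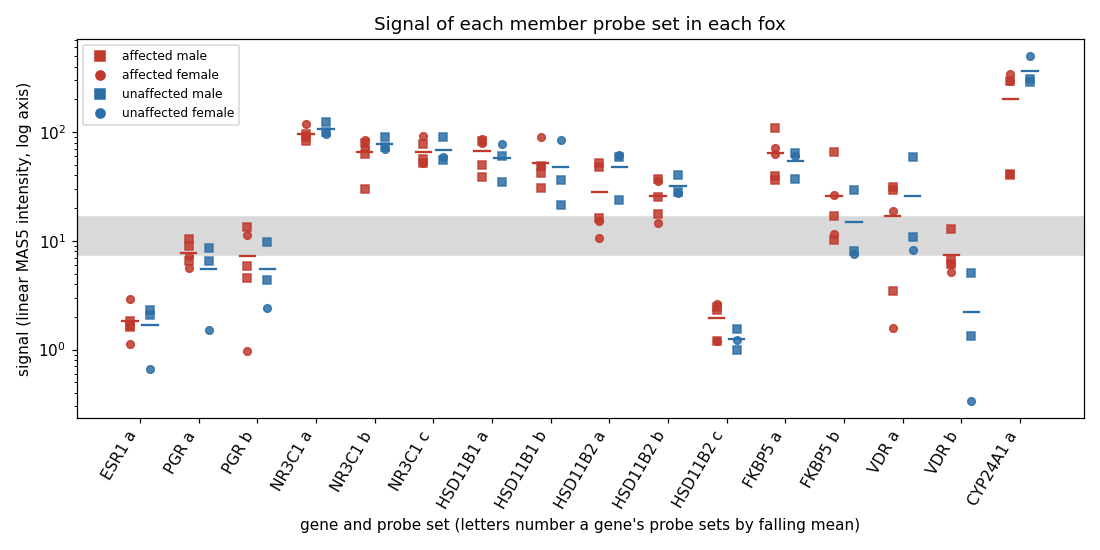
Signal (linear MAS5 intensity, log axis) of the 16 member probe sets in each fox, with red for affected and blue for unaffected foxes, squares for males, circles for females and short lines for group means. The grey band is the background of the arrays, 7.42 to 16.6: ESR1, both PGR probe sets, VDR b and HSD11B2 c lie in or under it, and CYP24A1 shows a pair of affected males far below the other 6 foxes.

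The receptors for oestrogen and progesterone were read at or under background in nearly all foxes. ESR1, the oestrogen receptor alpha, had 1 probe set, which read 1.12 to 2.92 in the affected and 0.664 to 2.32 in the unaffected animals. It was above background in 0 of 8 foxes. PGR, the progesterone receptor and a classical target of oestrogen, had a probe set that spanned 5.68 to 10.3 in the affected and 1.51 to 8.55 in the unaffected animals, above background in none. Its other probe set ran from 0.967 to 13.4 and from 2.40 to 9.65, above background in 1 affected fox (381) and 1 unaffected fox (97). How well these dog probes bind fox RNA was not tested, so such readings do not bound the transcript, and no fold is given. ESR1 and PGR were below the filter of the test.

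NR3C1, the glucocorticoid receptor, was read above background in all 8 foxes by each of its 3 probe sets. The brightest (a) read 82.7, 91.03, 95.1, 91.3 and 118 in affected foxes 19, 55, 107, 381 and 757. It read 125, 100.3 and 96.2 in unaffected foxes 86, 97 and 402. The groups overlapped and lay close together. The affected mean was 95.6 ± 13.3 (SD, n = 5), the unaffected mean 107 ± 15.3 (SD, n = 3), and the log2 values differed by -0.14 ± 0.17 (SE). Without fox 86 the difference was -0.041. Only 9.44% of the probe sets tested varied less over the 8 foxes, while for probe sets b and c 64.4% and 42.5% did.

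The other NR3C1 probe sets gave small differences too. The second (b) differed by -0.24 ± 0.26 (SE), from an affected mean of 65.7 ± 21.5 (SD, n = 5) and an unaffected mean of 77.5 ± 11.2 (SD, n = 3). Its lowest reading was 30.0 in affected fox 55, where all other foxes read 63.2 to 90.3. Without fox 55 the difference was -0.044, and without unaffected fox 97 it was -0.14. The third (c) read 51.7 to 92.6 in the affected and 54.9 to 90.0 in the unaffected animals and differed by -0.033 ± 0.23 (SE), a direction that turned with quantile normalization (0.031) and median centring (0.00045). The 95% intervals of the 3 probe sets together spanned -0.82 to 0.47, so a larger change of NR3C1 in either direction lies outside them. Probe set b did not pass a test of correlation with the others over n = 8 foxes, at r = 0.29 with a (two-sided exact permutation p = 0.476, adjusted p = 0.572; rho = 0.43, exact permutation p = 0.299, adjusted p = 0.449) and r = -0.21 with c (exact permutation p = 0.717, adjusted p = 0.717; rho = -0.048, exact permutation p = 0.935, adjusted p = 0.935).

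HSD11B1, which makes cortisol from cortisone, was above background in all foxes by both of its probe sets. The brighter (a) read 39.03, 50.03, 82.4, 79.9 and 86.3 in affected foxes 19, 55, 107, 381 and 757 and 60.8, 34.7 and 78.02 in unaffected foxes 86, 97 and 402. The other (b) read 30.4, 42.3, 48.6, 48.6 and 90.3 in the same affected foxes and 36.6, 21.3 and 84.5 in the unaffected ones. The groups overlapped widely, and the differences were 0.18 ± 0.28 and 0.17 ± 0.34 (SE). Leaving out 1 fox at a time gave -0.067 to 0.38 for a and -0.15 to 0.56 for b, the lowest of each without unaffected fox 97 and the highest without unaffected fox 402.

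The 2 probe sets of HSD11B1 ordered the foxes alike, with Pearson r = 0.84 (two-sided exact permutation p = 0.00831, adjusted p = 0.0412 over 6 pairs of probe sets of one gene) and Spearman rho = 0.90 (exact permutation p = 0.00456, adjusted p = 0.0274) over n = 8 foxes. Without foxes 19 and 97, those farthest from the median, r was 0.65, and it was 0.84 within the disease groups and 0.86 within the actin sets. Both probe sets read affected fox 757 highest, and unaffected fox 97 and affected fox 19 lowest.

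The higher HSD11B1 readings came mostly from females. The 3 females read 79.9, 86.3 and 78.02 by probe set a, where 4 of the 5 males read 34.7 to 60.8 and male 107 read 82.4. By probe set b the females read 48.6, 90.3 and 84.5 and the males 21.3 to 48.6. The log2 difference of males from females, with disease in the model, was -0.52 ± 0.24 (SE) for a and -0.79 ± 0.25 (SE) for b, with unadjusted p = 0.0567 and 0.0123 in limma. Neither passed after adjustment (adjusted p = 0.9999 in limma for each). Of all probe sets, 2.29% had an unadjusted p under 0.05 for sex and 1 (0.00388%) passed after adjustment, against 2 of the 10 members with an unadjusted p under 0.05, HSD11B1 b and CYP24A1. The difference for HSD11B1 b was -0.57 without unaffected female 402, with unadjusted p = 0.104 in limma.

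**Figure D2:**
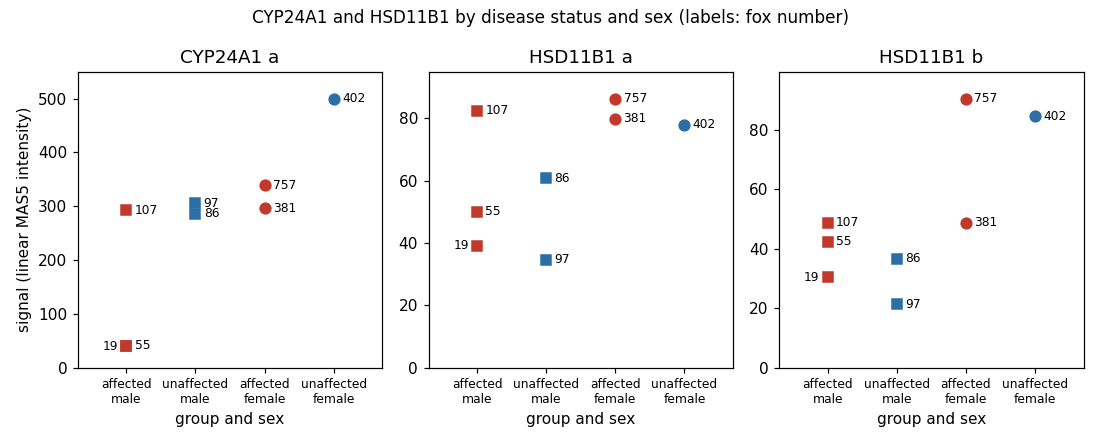
Signal (linear MAS5 intensity) of CYP24A1 (left) and of both HSD11B1 probe sets (middle and right) in each fox, by disease status and sex, with the fox number beside each point. Females hold 3 of the 4 highest HSD11B1 readings by either probe set, and affected males 19 and 55 lie at 39.9 and 40.9 for CYP24A1 where every other fox reads 286 or more.

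HSD11B2, which inactivates cortisol and so shields the mineralocorticoid receptor in salt-transporting epithelia, had 3 probe sets that did not give the same picture. The first (a) read 51.5, 16.2, 48.1, 10.6 and 15.2 in affected foxes 19, 55, 107, 381 and 757 and 23.8, 58.7 and 61.9 in unaffected foxes 86, 97 and 402. The affected foxes fell into a bright pair and 3 dim ones, of which 55 and 381 were below background. The affected mean was 28.3 ± 19.8 (SD, n = 5) and the unaffected mean 48.1 ± 21.2 (SD, n = 3). On the log2 scale they differed by -0.58 ± 0.37 (SE), with a 95% interval of -1.41 to 0.24. The difference was -0.90 without unaffected fox 86.

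By the other readable HSD11B2 probe set (b), affected foxes read 25.4, 17.8, 36.6, 14.5 and 35.3 and unaffected foxes 40.4, 27.9 and 27.8, in the same order. It was above background in all 8 and differed by -0.22 ± 0.23 (SE), and by -0.10 and -0.11 without unaffected fox 86 and affected fox 381. The third (c), which the annotation ties to the same accession as the first, read only 0.987 to 2.65 over all foxes, above background in none. The 2 readable probe sets ordered the foxes with r = 0.36 (two-sided exact permutation p = 0.376, adjusted p = 0.563) and rho = 0.21 (exact permutation p = 0.619, adjusted p = 0.743; n = 8). The only unaffected female was fox 402. Foxes 86 and 757, dim by the first probe set, were the brightest and the third brightest by the second. Within females the first differed by -1.44 and within males by -0.073, and the test of that contrast gave an unadjusted p = 0.0792 (adjusted p = 0.99995 in limma), where 2.48% of all probe sets had an unadjusted p under 0.05 and 0 of the 10 members did.

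FKBP5, a co-chaperone that dampens the glucocorticoid receptor and is itself strongly induced by glucocorticoids, was read highest in affected fox 19. Its brighter probe set (a) read 109 in affected fox 19, and 39.6, 36.3, 71.9 and 62.8 in affected foxes 55, 107, 381 and 757. Unaffected foxes 86, 97 and 402 read 64.7, 36.9 and 60.01, within the affected range, with fox 97 near its lower end. The other probe set (b) read 65.4 in fox 19 and 10.1, 16.9, 26.3 and 11.5 in the other affected foxes, against 29.2, 8.13 and 7.63. Fox 19 was thus the highest by both, and fox 55 and fox 97 were low by both. Probe set b was above background in only 3 affected and 2 unaffected foxes. Its readings in foxes 55, 757 and 97 lay below background and set only a bound, which limits its difference and its correlation with a.

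Neither FKBP5 probe set separated the groups, at 0.14 ± 0.30 and 0.37 ± 0.38 (SE) on the log2 scale. Without affected fox 19 the differences were -0.037 and 0.097. Leaving out 1 fox at a time gave -0.044 to 0.28 for a, the lowest without unaffected fox 97 and the highest without affected fox 107, and up to 0.68 for b, without unaffected fox 86. Both probe sets followed each other with r = 0.79 (two-sided exact permutation p = 0.0199, adjusted p = 0.0412) and rho = 0.67 (exact permutation p = 0.0831, adjusted p = 0.230) over n = 8 foxes, and with r = 0.65 without foxes 19 and 107.

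**Figure D3:**
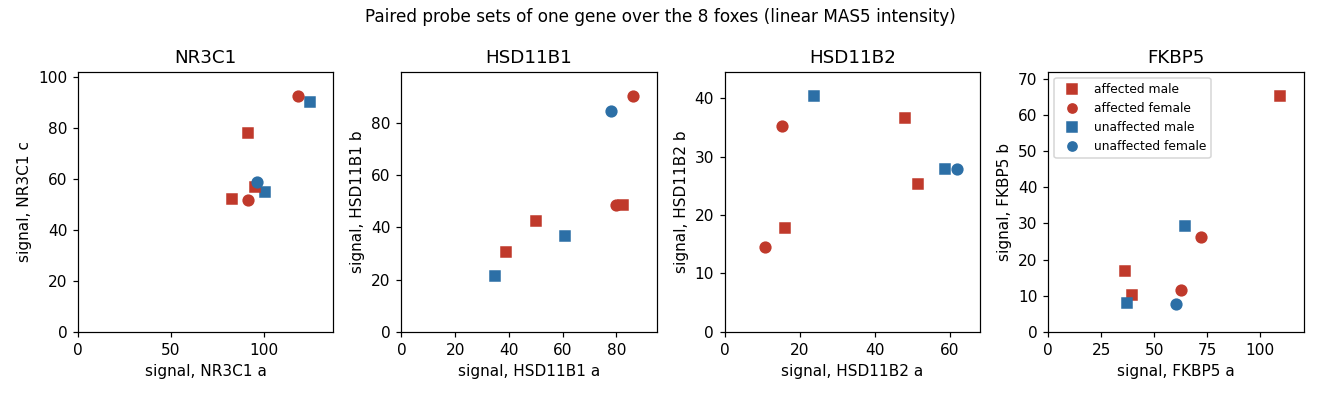
Signal (linear MAS5 intensity) of one probe set of a gene against another over the 8 foxes, with red for affected and blue for unaffected foxes, squares for males and circles for females. HSD11B1 and FKBP5 line up (r = 0.84 and 0.79 on the log2 scale), NR3C1 a and c rest on the highest foxes (r = 0.79, and 0.081 without foxes 86 and 757), and HSD11B2 scatters (r = 0.36).

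VDR, the vitamin D receptor, was above background in only some foxes and was below the filter of the test. One probe set (a) read 29.3, 31.05, 3.47, 1.58 and 18.7 in affected foxes 19, 55, 107, 381 and 757 and 10.9, 59.2 and 8.19 in unaffected foxes 86, 97 and 402. It was above background in 3 affected and 2 unaffected foxes, and the highest reading was that of unaffected fox 97. The other (b) read 12.7, 6.09, 6.84, 6.14 and 5.13 against 5.03, 1.32 and 0.338, so that the groups did not overlap, but only fox 19 exceeded background. Here the readings are at the noise of the array, and without the filter the probe set had an unadjusted p = 0.0476 (adjusted p = 0.9999 in limma), while the first differed the other way, by -0.27 ± 0.46 (SE). Without the filter, 1490 of all 42924 probe sets had an unadjusted p under 0.05 in limma. Among the probe sets that passed the filter, 0.909% were fully separated upward.

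CYP24A1, which inactivates vitamin D, was the member that varied most. Its only probe set read 39.9, 40.9, 293, 296 and 339 in affected foxes 19, 55, 107, 381 and 757. It read 286, 305 and 499.9 in unaffected foxes 86, 97 and 402. Affected males 19 and 55 were therefore the low foxes, while the other 3 affected foxes lay within the unaffected range of 286 to 499.9. Over the 8 foxes its log2 spread was larger than that of 99.2% of the probe sets tested, and the highest reading was 12.5 times the lowest. That ratio was larger for VDR a and b (37.5 and 37.6) and for PGR b (13.9), which were below the filter of the test.

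The affected mean was 202 ± 149 (SD, n = 5) and the unaffected mean 364 ± 118 (SD, n = 3). The log2 difference was -1.19 ± 0.67 (SE), a 2.29-fold lower level on the log2(signal + 16) scale, with a 95% interval of -2.69 to 0.30 that holds 0 (unadjusted p = 0.106, adjusted p = 0.9999 in limma). CYP24A1 was the 1 member of 10 with a fold of at least 2 in either direction, which 0.0893% of all probe sets had downward and 0.315% upward. Without fox 19 the difference was -0.81 and without fox 55 it was -0.82. Without each other fox it ran from -1.48 to -0.95.

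Females and foxes of low 5' actin share 402 as their only unaffected fox. The CYP24A1 difference was not the same in every subset. Within the foxes of high 5' actin (107 and 757 against 86 and 97) it was 0.087, and within those of low 5' actin (19, 55 and 381 against 402) it was -2.37. The latter set holds the low foxes 19 and 55 together with foxes 381 and 402, which read 296 and 499.9. Within males it was -1.65 and within females -0.63, and the test of that contrast gave an unadjusted p = 0.399 (adjusted p = 0.99995 in limma).

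Males averaged 193 ± 140 (SD, n = 5) and females 379 ± 107 (SD, n = 3), and they differed by -1.38 ± 0.54 (SE; unadjusted p = 0.0319, adjusted p = 0.9999 in limma) on the log2 scale with disease in the model. The 3 males other than 19 and 55 read 286 to 305 and the 3 females 296 to 499.9. Summed keratinocyte markers were 9946 and 9685 in foxes 19 and 55, the lowest sums after the 7889 of fox 86, which read 286 for CYP24A1. The other 5 foxes had 11038 to 15644. Summed cornified layer markers were 13983 in fox 19, the highest of all, and 9235 in fox 55. The marker covariates were means of the log2 values of the markers kept by the filter, not these sums. With the keratinocyte or the cornified layer markers as a covariate the disease difference was -0.96 and -0.94, and with the actin ratio it was -0.70. With sex as a covariate it was -1.29, with an unadjusted p = 0.0425 (adjusted p = 1.0 in limma). The part of tissue makeup and of the actin control in the CYP24A1 readings was not tested beyond these fits.

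**Figure D4:**
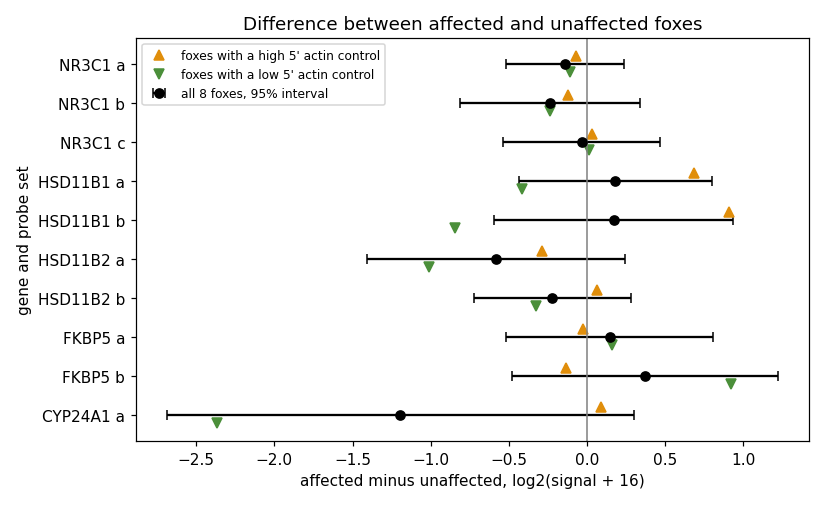
Difference between affected and unaffected foxes on the log2(signal + 16) scale for the 10 tested member probe sets: black points with 95% intervals are all 8 foxes, and triangles are the differences within foxes of high (up) or low (down) 5' actin control. Every interval holds 0, and for CYP24A1, both HSD11B1 and both FKBP5 probe sets and HSD11B2 b the triangles lie on opposite sides of it.

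HSD11B1 also turned with the actin control. Its probe sets differed by 0.69 and 0.91 within the foxes of high 5' actin and by -0.42 and -0.85 within those of low 5' actin. The unaffected foxes of the former set are the males 86 and 97 and that of the latter is the female 402, so sex and actin set cannot be told apart there. For NR3C1 the differences within the sets ran from -0.24 to 0.035 over the 3 probe sets.

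No pair of members that act together passed a test of correlation over the foxes. Of the 5 pairs that could be compared, each by its probe set with the highest mean of log2 values, 0 passed (two-sided exact permutation test, adjusted over the 5). NR3C1 and FKBP5, receptor and target, gave r = -0.15 (exact permutation p = 0.713, adjusted p = 0.946) and rho = -0.19 (exact permutation p = 0.665, adjusted p = 0.831). Without foxes 86 and 757 their r was -0.80 (exact permutation p = 0.05, adjusted p = 0.153). VDR and CYP24A1 gave r = -0.44 (exact permutation p = 0.286, adjusted p = 0.715) and rho = -0.24 (exact permutation p = 0.582, adjusted p = 0.831), and r = -0.83 without foxes 97 and 381, with VDR at background in several foxes. FKBP5 gave r = -0.029 with HSD11B1 and -0.093 with HSD11B2 (exact permutation p = 0.946 and 0.823, adjusted p = 0.946 for both; rho = -0.048 and -0.31, exact permutation p = 0.935 and 0.462, adjusted p = 0.935 and 0.831). Without the 2 foxes farthest from the median those r were 0.31 and 0.15. ESR1 and PGR gave r = 0.60 (exact permutation p = 0.116, adjusted p = 0.582) and rho = 0.55 (exact permutation p = 0.171, adjusted p = 0.831), and r = 0.26 without foxes 402 and 757, on readings that were at background.

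Within the disease groups these 5 pairs had r = -0.086 (NR3C1 and FKBP5), -0.072 (HSD11B1 and FKBP5), -0.013 (HSD11B2 and FKBP5), -0.63 (VDR and CYP24A1) and 0.62 (ESR1 and PGR). Within the actin sets they had 0.27, 0.0096, -0.063, -0.56 and 0.53 in the same order.

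Genes whose pattern over the 8 foxes was most like that of a member were taken from the 10824 genes tested, by Pearson r of log2 values, as a description. Each member was read by its probe set with the highest mean. With 8 foxes, the highest r among so many genes is large in part by selection. Among those nearest to CYP24A1 were TOP1, a DNA topoisomerase (r = 0.97), and ANKRD13D (r = 0.95). The 2 other probe sets of TOP1 had r = 0.64 and 0.45 with CYP24A1, and that of ANKRD13D had r = -0.29. NR3C1 by probe set a was followed by COL13A1, a transmembrane collagen (r = 0.98), GTF2A1, a general transcription factor (r = 0.97), and UBASH3A (r = 0.96). Its own probe set b had r = 0.29 with a. HSD11B1 went with POLR2F, a subunit of RNA polymerases (r = 0.93), ATP6V1C2, a subunit of the proton pump (r = 0.92), and ACSM3 (r = 0.89). The genes nearest to HSD11B2 were SUOX, sulfite oxidase (r = 0.95), GCFC2 (r = 0.94) and GTF2H5 (r = 0.94), but their other probe sets had r = 0.41, 0.39 and 0.71. Those nearest to FKBP5 were CDCA5, TMOD1, a capping protein of actin filaments, and ZC4H2 (r = 0.94, 0.93 and 0.93). The other probe sets of ATP6V1C2 and TMOD1 had r = 0.74 and 0.85.

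The wider pathways were read from lists, 1 probe set per gene. Glucocorticoid response genes mostly had higher means in affected foxes: 13 of the 15 tested (of 22 listed), with a median log2 difference of 0.30, where 4905 of all 10824 genes were higher and the median was -0.026. None of the 15 passed (0 at an adjusted and 0 at an unadjusted p under 0.05 in limma). PDK4, a brake on pyruvate use, read 33.6 ± 20.2 (SD, n = 5) against 15.3 ± 4.02 (SD, n = 3), and GLUL, glutamine synthetase, 4741 ± 821 against 3519 ± 1073. With 1 fox left out at a time their log2 differences ran from 0.38 to 0.73 and from 0.23 to 0.68. ANXA1, annexin A1, a mediator of the anti-inflammatory action of glucocorticoids, read 9523 to 13180 in the affected and 8108 to 9413 in the unaffected animals, without overlap, where 0.909% of all probe sets were fully separated upward. TXNIP and MT2A, which bind thioredoxin and metal ions, were the 2 lower members, with log2 differences of -0.43 and -0.40 (-0.61 to -0.27 and -0.57 to -0.18 with 1 fox left out).

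The median of the glucocorticoid list was smaller in some subsets of the foxes. It was 0.18 without affected fox 19, the fox with the highest FKBP5, 0.17 without affected fox 381 and 0.20 without unaffected fox 97. Within the foxes of high 5' actin it was 0.010 with 9 of 15 members higher, and within those of low 5' actin 0.26 with 12 of 15. With the actin ratio as a covariate it was 0.034, with the cornified layer markers 0.087, and within females 0.046.

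In the vitamin D list 8 of 12 members tested (of 22 listed) had higher means, with a median of 0.059 and 0 called. CYP27B1, which makes active vitamin D, read 27.2 ± 15.5 (SD, n = 5) against 14.5 ± 11.4 (SD, n = 3), a difference of 0.50 ± 0.35 (SE) that ran from 0.15 to 0.73 with 1 fox left out. SPP1, osteopontin, ran from 310 to 3614 in the affected and from 82.5 to 1946 in the unaffected animals, with a difference of 1.87 ± 1.01 (SE), and of 1.14 to 3.30 with 1 fox left out. CD14, a co-receptor for bacterial lipopolysaccharide, differed by 0.41 and CAMP, a cathelicidin, by -0.41, and both are known targets of vitamin D in human cells. With 1 fox left out they ran from 0.23 to 0.51 and from -0.59 to -0.17. Leaving out 1 fox at a time took the list's median from -0.060 (unaffected fox 402) and -0.0067 (affected fox 757) up to 0.22 (affected fox 19), and foxes 381, 86, 97 and 107 gave 0.15, 0.19, 0.13 and 0.023. It was 0.26 with the actin ratio and 0.32 with the cornified layer markers as a covariate, 0.43 within females and -0.058 within males.

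For sex steroids 13 of 19 members tested (of 30 listed) had higher means (median 0.052, 0 called). HSD17B11, a hydroxysteroid dehydrogenase, differed by 0.86 ± 0.55 (SE), GPER1, a membrane oestrogen receptor, by 0.28 ± 0.24, and PGRMC1, a haem protein of membranes, by 0.28 ± 0.28. TFF1, a classical oestrogen target, differed by -0.59 ± 0.44 and was at background in 2 affected foxes. With 1 fox left out these differences ran from 0.40 to 1.23 (HSD17B11), 0.17 to 0.44 (GPER1), 0.054 to 0.53 (PGRMC1) and -0.82 to -0.37 (TFF1), and the list's median from 0.013 without affected fox 381 to 0.14 without unaffected fox 402. The aldosterone and sodium transport list had 6 of 10 higher (median 0.088, or 0.00090 without affected fox 19, 0 called). HSD17B6, an enzyme that oxidises steroids, read 99.1 to 139 in the affected and 77.0 to 92.4 in the unaffected animals, without overlap, with a difference of 0.39 ± 0.17 (SE; unadjusted p = 0.0449, adjusted p = 0.9999 in limma). Of all probe sets tested, 0.909% were fully separated upward and 2.69% had an unadjusted p under 0.05 in limma. FXYD5 and ATP1B1, both tied to the sodium pump, differed by -0.88 ± 0.50 and -0.81 ± 0.72, and by -1.13 to -0.56 and -1.05 to -0.14 with 1 fox left out. H6PD, which feeds HSD11B1 with its cofactor, differed by -0.20 ± 0.21 (-0.38 to -0.094 with 1 fox left out).

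Receptor chaperones and coregulators had list medians near that of all genes with all 8 foxes. Of the chaperones 8 of 13 had higher means (median 0.036, or -0.049 after quantile normalization, 0 called), among them HSP90AA1, which holds the receptors ready for hormone, at 0.084 ± 0.15 (SE), and FKBP4, the counterpart of FKBP5, at 0.11 ± 0.18 (-0.11 by its other probe set). PTGES3, the p23 co-chaperone, differed by -0.63 ± 0.51 (-1.07 to -0.32 with 1 fox left out). Of the coregulators 4 of 11 had higher means (median -0.015, or 0.019 after median centring, 0 called), with NCOA1, a coactivator, at 0.14 ± 0.21 and NCOR1, a corepressor, at 0.12 ± 0.22. Both turned with 1 fox left out, to -0.032 and -0.0073, and their other probe sets ran from -0.045 to 0.12 and from -0.21 to 0.21. The other 7 coregulators had lower means, among them PRMT1 at -0.31 ± 0.18, NCOA4 at -0.25 ± 0.27 and CREBBP at -0.16 ± 0.17 (SE). With 1 fox left out PRMT1 ran from -0.41 to -0.25, and its other probe set differed by -0.074. The other probe sets of NCOA4 ran from -0.35 to -0.15 and those of CREBBP from -0.48 to 0.76.

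**Figure D5:**
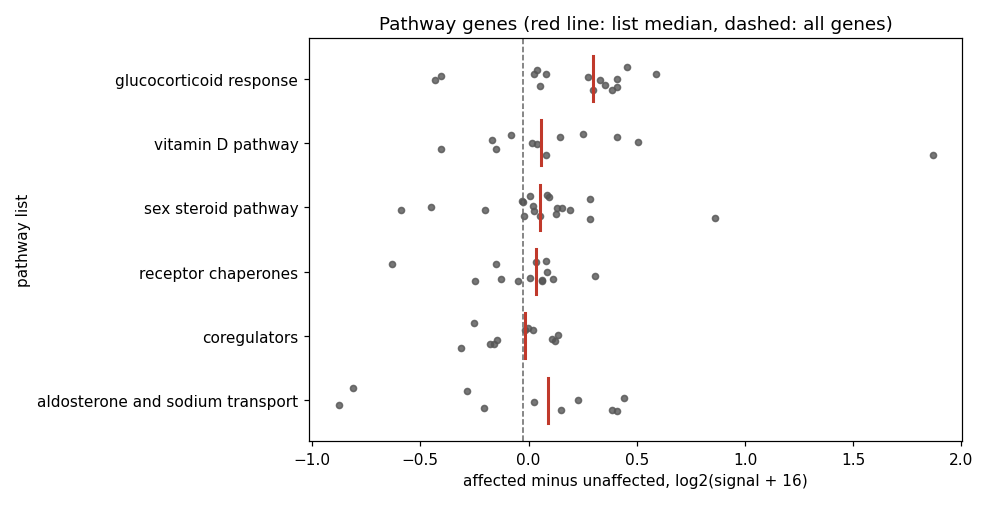
Difference between affected and unaffected foxes on the log2(signal + 16) scale for each tested gene of 6 pathway lists (points, spread vertically only to be seen), with the list median in red and the median of all genes, -0.026, as a dashed line. The glucocorticoid list has 13 of 15 points above 0 and a median of 0.30, and no point in any list passed the test.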

How the data were processed

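The authors deposited 1 value table of linear intensity, the MAS5 signal per the submitters' processing notes. The scaling target, background method and version are unknown here; after trimming 2% at each end, all arrays had a mean of 150.0. The analysis left out 111 control probe sets and then the 40% dimmest by mean log2(signal + 16). Groups were compared in R 4.3.3 with the linear models and moderated variances of limma 3.58.1 (disease as sole term, Benjamini-Hochberg over 25754 probe sets, 0.05). Separate fits added sex, and sex with its interaction with disease. The scripts were tested on simulated arrays. Members that did not pass the filter are given from a fit on all 42924 probe sets. A listed gene is read by its probe set with the highest mean. Up to 3 genes per list and direction, those of smallest p, could be named, and per member the 3 genes of highest r (1 of those for CYP24A1 is not reported here). Probe sets of one gene were compared, and marker covariates tried, after seeing the data. Members and lists were chosen with earlier results of these data known. Each array is 1 animal, and their number limits the precision (median SE 0.23).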

Additional observations from a re-analysis of the deposited data

Results flagged for a closer look

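Each of the 16 member probe sets was checked for a fox far from the other affected foxes, by the gap to its neighbour over the range of the 5 values. Chance marks about 1 in 20 such groups, and 1 of the 16 was marked. Affected fox 19 read 12.7 for VDR probe set b, where the next affected fox read 6.84, a gap of 0.775 of the range against a limit of 0.71. This was the only reading of that probe set above background, and by the other VDR probe set fox 19, at 29.3, was next to fox 55 at 31.05.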

How the results depend on the processing

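Over 26 alternatives of the disease comparison (offset, normalization, filter, threshold, covariates, weights, prior variance, subsets and each fox left out) limma called 0 probe sets, while 418 to 1848 had an unadjusted p under 0.05. The sex and interaction comparisons of the members also gave 0 calls throughout. Of 246 member differences recomputed, 219 kept their direction, and the cause of the others was not tested. The 219 include the alternatives of filter and prior variance, which leave each difference unchanged by construction and so cannot turn it. For NR3C1 c the disease difference became 0.0314 with quantile normalization, 0.000453 with median centring, 0.0421 with the actin ratio, 0.132 with the cornified layer markers, 0.0259 with array weights, 0.198 in females, and 0.0354 and 0.0157 in foxes of high and low 5' actin. In females NR3C1 a and b became 0.0961 and 0.130 and HSD11B1 b became -0.278. In foxes of high 5' actin HSD11B2 b became 0.0614, FKBP5 a and b -0.0251 and -0.137, and CYP24A1 0.0868. In those of low 5' actin HSD11B1 a and b became -0.418 and -0.845. FKBP5 a became -0.0227 with the cornified layer markers, and its interaction 0.0125 with an offset of 64. Leaving out 1 fox at a time, disease differences ran from -0.143 to 0.147 (NR3C1 c), -0.0671 to 0.379 (HSD11B1 a), -0.151 to 0.565 (HSD11B1 b) and -0.0442 to 0.279 (FKBP5 a). The sex differences ran from -0.159 to 0.203 (NR3C1 c), -0.414 to 0.0078 (NR3C1 b), -0.185 to 0.0761 (NR3C1 a) and -0.0671 to 0.331 (HSD11B2 b). The correlation of FKBP5 with NR3C1 was 0.269 within actin sets, that with HSD11B1 0.00963 within actin sets and 0.310 without 2 foxes, and that with HSD11B2 0.154 without 2 foxes. No paired analysis was possible because the groups share no replicate numbers, which are fox numbers. ESR1, PGR, VDR b and HSD11B2 c were at or under background in most or all foxes. Their probes were not tested on fox RNA, so their transcript levels are not known here.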
